A study of Mus musculus with 12 samples.

Results

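The chemokine and colony stimulating factor mRNAs of 4T1 cells were followed through sub-polysomal and polysomal RNA. They were 10 genes chosen by symbol, namely the CC chemokines Ccl2, Ccl7, Ccl5 and Ccl20, the CXC chemokines Cxcl1, Cxcl5 and Cxcl16, and the colony stimulating factors Csf1, Csf2 and Csf3, of 55376 genes in the count table. The choice was made with the high Ccl2 counts of the METTL7A1 libraries known, so the differences between METTL7A1 and mock cells in these 10 genes are given as descriptions, without a test. Of the 10 genes, 9 reached 1 CPM (counts scaled to the size of the library) in at least 3 of the 12 libraries and entered the tests with 12224 genes in all. Ccl7 did not reach this level, and Ccl2 passed only through the METTL7A1 libraries.

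4T1 is a mouse mammary gland cancer cell line. The cells were stably transfected either with the empty vector (mock) or with a vector carrying the full-length Mettl7a1 cDNA with a FLAG tag behind a CMV promoter, and the sources used here do not say whether each line was 1 clone. Both kinds of cells received cycloheximide at 0.1 mg/ml for 5 min, which holds ribosomes on the mRNA, and were lysed and fractionated on sucrose gradients. Fractions 3 to 7, with free subunits and monosomes, gave the sub-polysomal RNA, and fractions 8 to 11 gave the polysomal RNA. Each of the 4 combinations of cells and RNA had 3 libraries, lettered A to C in mock cells and D to F in METTL7A1 cells. The study describes its fractionations as independent and made on biological triplicates, and the labels do not tie the letters to cultures, so the p-values measure the spread between these libraries.

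Chemokines are small secreted proteins that steer leukocytes along a gradient through receptors coupled to G proteins. CC chemokines mostly attract monocytes, macrophages and lymphocytes, and CXC chemokines with an ELR motif attract neutrophils. The colony stimulating factors drive the growth and survival of macrophages and granulocytes, and tumor cells such as 4T1 use all 3 groups to draw myeloid cells. Many of these mRNAs carry AU-rich elements in the 3′ UTR, short repeats of ATTTA in the DNA letters, where decay factors such as tristetraprolin bind.

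The 3′ UTRs of Csf2 and Cxcl1 hold the longest of these repeats among the 10 genes, and the window with the most ATTTA matches is shown for 4 of them, from the GENCODE transcripts of the mouse genome build GRCm38. Capitals mark ATTTA and overlapping copies of it.
Csf2, chr11:54247324-54247353, minus strand: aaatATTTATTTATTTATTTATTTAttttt
Cxcl1, chr5:90892607-90892636, plus strand: tcctATTTATTTAtgtATTTATTTAttcca
Csf3, chr11:98702984-98703013, plus strand: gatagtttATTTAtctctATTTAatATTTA
Ccl2, chr11:82037206-82037235, plus strand: aatattaaacttATTTAacttattgatgtt

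Counted on the sense strand with overlaps, the 3′ UTR held 9 ATTTA in Csf2, 7 in Cxcl1, 6 in Csf3, 5 in Ccl20 and in Cxcl5, 4 in Csf1, 2 in Ccl7 and in Cxcl16 and 1 in Ccl2. Ccl5, with a 3′ UTR of 199 bases, held 0. Of the 10676 genes tested that have a 3′ UTR of at least 20 bases, 66.9% held ATTTA. The longer TTATTTATT was present in Csf2, 4 times, and in Cxcl1, 2 times, and in 7.38% of all 3′ UTRs. Among 989 genes with a 3′ UTR of 0.8 to 1.25 times the length of that of Csf2, 0.101% had as many ATTTA. For Cxcl1 this share was 0.372% of 1344 genes, for Ccl20 1.19% of 1178 and for Csf3 1.68% of 1373, whereas for Cxcl16 it was 62.1% of 1676. It was 10.4% of 1668 for Cxcl5, 17.9% of 1129 for Ccl7, 37.4% of 926 for Ccl2 and 47.8% of 1565 for Csf1. Each set includes the gene itself, except that of Ccl7, which was not tested. A match is a description of the letters and was not tested as a binding site.

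RefSeq promoter sequences of GRCm38.p6 were at hand for 4 of the 10 genes, Ccl20, Cxcl1, Csf1 and Csf2. The 250 bases before the start were searched on both strands for GGNNTTTCC, a common form of the NF-kB site, because chemokine genes are textbook targets of NF-kB. The stretches around the matches are shown with the matches in capitals, in the direction of transcription.
Ccl20, chr1:83116666-83116765, plus strand: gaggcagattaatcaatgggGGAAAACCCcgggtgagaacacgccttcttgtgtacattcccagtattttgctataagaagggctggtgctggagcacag
Cxcl1, chr5:90891136-90891244, plus strand: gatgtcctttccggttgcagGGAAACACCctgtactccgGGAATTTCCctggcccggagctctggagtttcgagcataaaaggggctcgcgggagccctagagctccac
Csf1, chr3:107760524-107760643, minus strand: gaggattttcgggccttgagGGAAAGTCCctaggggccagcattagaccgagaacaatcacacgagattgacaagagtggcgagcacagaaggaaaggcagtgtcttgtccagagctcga

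Cxcl1 had 2 matches, Ccl20 and Csf1 had 1 each, and Csf2 had 0. For Csf2 the bases searched were chr11:54249900-54250149, while its gene model in the count table, on the minus strand, starts at 54249667. The bases next to that start were not searched, so the 0 does not cover them. A match was found in 1619 of the 32851 promoters searched (4.93%). No measurement in these libraries reads binding at these sites.

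The libraries held between 1817520 and 6966156 counts, the fewest in the sub-polysomal library of mock replicate A. The transfected gene Mettl7a1 matched the labels, with at most 24 counts in a mock library and at least 989 in a METTL7A1 library. The 10 genes took 0.312 to 0.370% of the counts of mock sub-polysomal RNA and 0.269 to 0.316% of mock polysomal RNA. In METTL7A1 cells they took 0.424 to 0.495% and 0.332 to 0.389%, so that the ranges of the genotypes did not overlap in either pool. Cxcl1, Cxcl5 and Csf3 alone made 76.2 to 84.7% of these counts. Levels are CPM scaled with TMM factors, or CPM per kb of the deposited gene length where genes are set side by side. They are relative to all RNA of the same pool, and in bulk RNA fewer expressing cells and less RNA per cell cannot be told apart.

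Ccl2, the main attractant of monocytes through the receptor CCR2, was close to the counting limit in mock cells and well above it in METTL7A1 cells. The mock libraries held 1, 4 and 4 counts in sub-polysomal RNA (0.564, 1.26 and 0.789 CPM) and 1, 3 and 3 counts in polysomal RNA (0.136, 0.412 and 0.372 CPM). The METTL7A1 libraries held 79, 101 and 77 counts in sub-polysomal RNA (26.2, 25.04 and 18.4 CPM) and 109, 105 and 83 counts in polysomal RNA (14.9, 13.5 and 14.0 CPM). The lowest METTL7A1 library of Ccl2 was at 13.5 CPM and the highest mock library at 1.26 CPM, so the groups were far apart in both pools. For a ratio, summed counts were divided by the summed library sizes after scaling with TMM factors. By this ratio Ccl2 was 45.7-fold higher in METTL7A1 cells in polysomal RNA (exact 95% interval 21.9 to 115, from 7 and 297 counts). In sub-polysomal RNA it was 25.5-fold higher (13.2 to 56.3, from 9 and 257 counts). These intervals cover counting error only. The fitted log2 differences were 5.41 (SE 0.32) in polysomal and 4.65 (SE 0.32) in sub-polysomal RNA, above 99.98% and 99.93% of all genes tested. The genes were chosen with this difference of Ccl2 known, and Ccl2 passed the filter only through the METTL7A1 libraries. Nothing is therefore read from its rank.

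Ccl7, a monocyte attractant whose gene starts 8.26 kb beyond the end of Ccl2, stayed near 0. It had 0 counts in all 6 mock libraries. In METTL7A1 cells it had 1, 2 and 3 counts in sub-polysomal RNA and 1, 0 and 1 in polysomal RNA. Against a floor of 3 counts over the 3 mock libraries, the 6 sub-polysomal counts were at least 1.78-fold higher. That bound leaves out the counting error of the 6 counts, with which the exact lower 95% limit of the ratio was 1.05. This limit covers counting error only, and Ccl7 was chosen with this contrast known, so it is not read as a test. The 2 polysomal counts lay under the floor, so no ratio is given there.

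Ccl20, which attracts immature dendritic cells and Th17 cells through CCR6, stood at 11.3, 12.3 and 15.97 CPM in mock sub-polysomal RNA and at 49.0, 45.1 and 42.7 CPM in METTL7A1 sub-polysomal RNA. In polysomal RNA it was at 6.82, 10.3 and 11.0 CPM in mock cells and at 32.6, 28.0 and 30.6 CPM in METTL7A1 cells. The groups did not overlap in either pool, and the 3.34-fold and 3.22-fold differences in sub-polysomal and polysomal RNA were close to each other (log2 1.74, SE 0.19, and 1.69, SE 0.17).

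Ccl5, an attractant of T cells and monocytes, was at 23.7, 37.4 and 39.6 CPM in mock sub-polysomal RNA and at 76.5, 77.1 and 78.3 CPM in METTL7A1 sub-polysomal RNA. Its polysomal levels were 5.73, 17.2 and 17.8 CPM in mock cells and 23.3, 21.5 and 29.6 CPM in METTL7A1 cells. Mock replicate A was the lowest library of Ccl5 in both pools. The log2 difference of 0.86 (SE 0.27) in polysomal RNA fell to 0.51 without this replicate, and that of 1.16 (SE 0.26) in sub-polysomal RNA to 0.98.

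**Figure D1:**
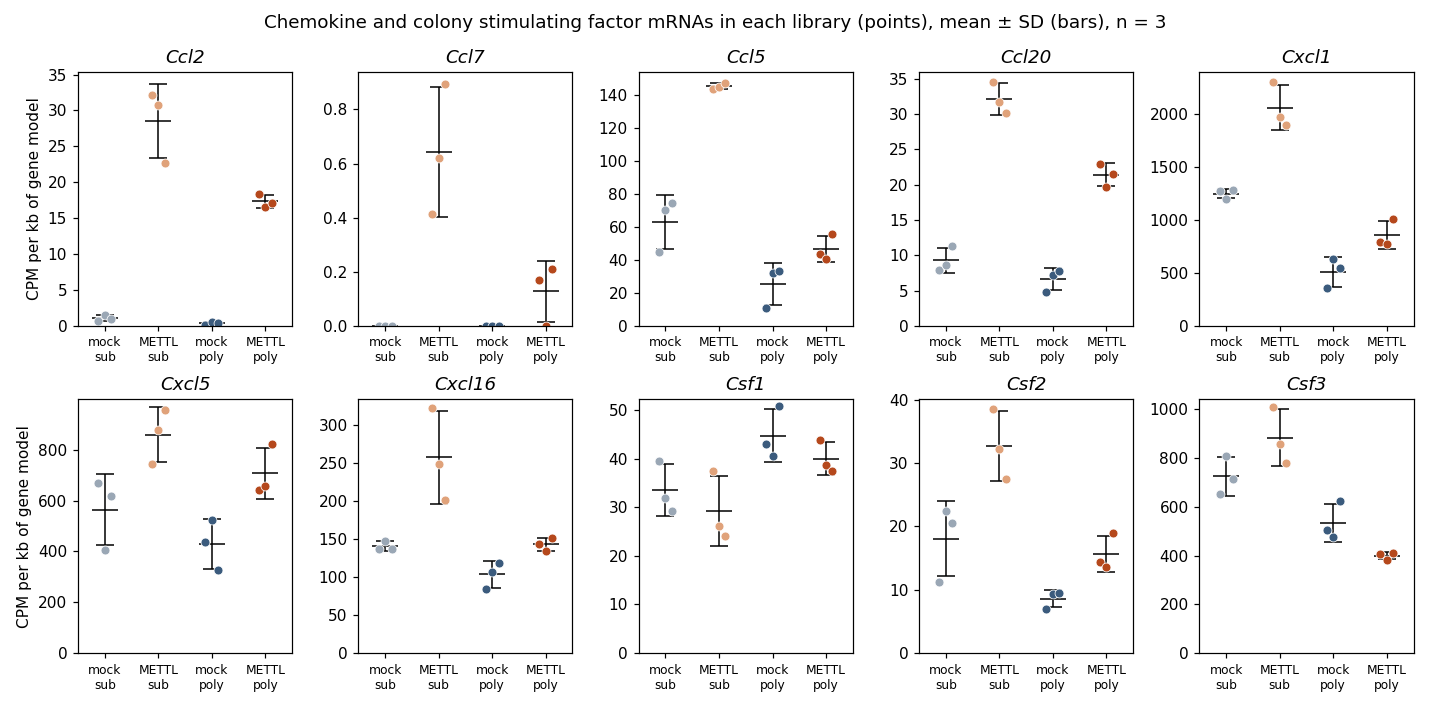
Level of each of the 10 mRNAs in CPM per kb of gene model (vertical axes from 0, one scale per gene) in the 12 libraries, with sub-polysomal RNA (sub) on the left and polysomal RNA (poly) on the right of each panel; points are libraries, bars the mean ± SD of 3. Ccl2 lies between 0.168 and 1.55 CPM per kb in mock libraries and between 16.6 and 32.2 in METTL7A1 libraries, while the Csf1 ranges of the genotypes overlap in both pools.

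The neutrophil attractants Cxcl1 and Cxcl5 were, with Csf3, the most abundant of the 10 genes. Cxcl1, which acts through CXCR2, was at 1209, 1140 and 1218 CPM in mock sub-polysomal RNA and at 2193, 1882 and 1811 CPM in METTL7A1 sub-polysomal RNA. Its polysomal levels were 338, 604 and 519 CPM in mock cells and 756, 735 and 960 CPM in METTL7A1 cells. No METTL7A1 library overlapped the mock libraries of the same pool, and the differences were 1.65-fold in sub-polysomal and 1.68-fold in polysomal RNA.

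Cxcl5, also a ligand of CXCR2, was at 1052, 640 and 974 CPM in mock sub-polysomal RNA and at 1173, 1380 and 1508 CPM in METTL7A1 sub-polysomal RNA. In polysomal RNA it was at 690, 826 and 514 CPM in mock cells and at 1009, 1038 and 1293 CPM in METTL7A1 cells. The differences of 1.52-fold and 1.65-fold left a gap between the groups, although the mock libraries of Cxcl5 spread more than those of Cxcl1.

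Cxcl16, a chemokine made as a membrane protein and shed by ADAM proteases, was at 371, 399 and 369 CPM in mock sub-polysomal RNA and at 870, 671 and 544 CPM in METTL7A1 sub-polysomal RNA. Its polysomal levels were 229, 288 and 321 CPM in mock cells and 386, 363 and 408 CPM in METTL7A1 cells. The difference was 1.83-fold in sub-polysomal RNA and 1.38-fold in polysomal RNA. Exons of Cxcl16 overlap those of Zmynd15 on the other strand, and exons of Csf2 overlap those of Gm12223, so reads could be shared if the counting ignored strand, which the sources used here do not state.

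The colony stimulating factors did not move together. Csf2, the granulocyte and macrophage factor GM-CSF, was at 9.02, 17.9 and 16.4 CPM in mock sub-polysomal RNA against 30.8, 25.8 and 22.0 CPM in METTL7A1 cells. Its polysomal levels were 5.59, 7.41 and 7.56 CPM in mock cells against 11.5, 10.9 and 15.1 CPM in METTL7A1 cells. Csf2 was thus 1.72-fold and 1.81-fold higher, without overlap.

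Csf1, the macrophage factor M-CSF, was at 187, 150 and 138 CPM in mock sub-polysomal RNA and at 177, 124 and 113 CPM in METTL7A1 sub-polysomal RNA. In polysomal RNA it was at 203, 191 and 240 CPM in mock cells and at 207, 183 and 176 CPM in METTL7A1 cells. The genotypes overlapped in both pools, and the log2 differences were -0.19 (95% interval -0.56 to 0.17) and -0.16 (-0.51 to 0.19). The sub-polysomal value became 0.06 when libraries were scaled to Actb.

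Csf3, the granulocyte factor G-CSF, was at 922, 1144 and 1010 CPM in mock sub-polysomal RNA and at 1428, 1212 and 1103 CPM in METTL7A1 sub-polysomal RNA. In polysomal RNA it was at 711, 671 and 879 CPM in mock cells and at 575, 542 and 579 CPM in METTL7A1 cells. Csf3 was the only one of the 9 genes whose polysomal METTL7A1 libraries all lay below the mock libraries (log2 -0.41, SE 0.16), and its sub-polysomal ranges overlapped (log2 0.28, SE 0.16).

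Across the 9 genes, 7 had a positive METTL7A1 to mock difference in polysomal RNA and 8 in sub-polysomal RNA, with medians of 0.75 and 0.78 on the log2 scale against -0.014 and -0.0013 over all genes tested. Non-overlapping ranges were found in 36.6% of all genes in polysomal and 43.9% in sub-polysomal RNA. Since the genes were chosen with this contrast known, nothing is read from these values.

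**Figure D2:**
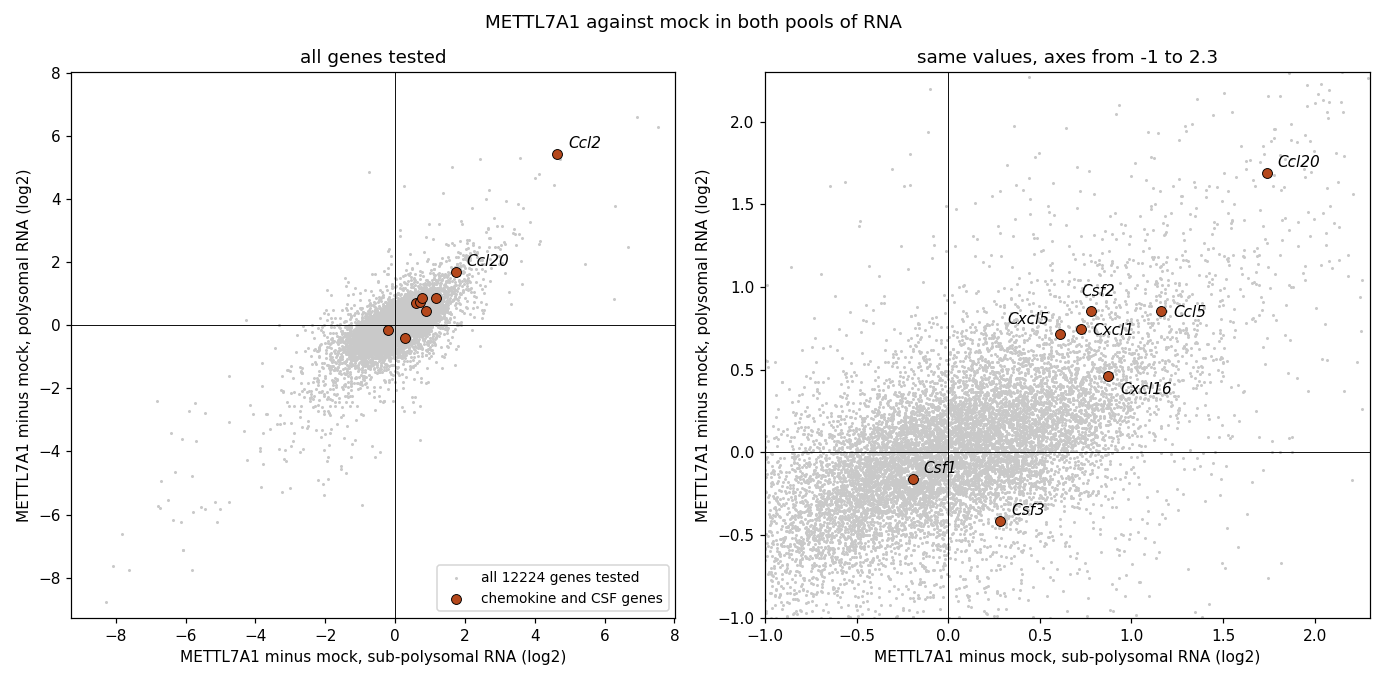
METTL7A1 minus mock log2 difference in sub-polysomal RNA (horizontal) and polysomal RNA (vertical) for 12224 genes (grey) and the 9 chemokine and colony stimulating factor genes tested (orange), with all values on the left and a narrower range on the right. Ccl2 lies at 4.65 and 5.41, Ccl20 at 1.74 and 1.69, and Csf3 at 0.28 and -0.41.

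Set side by side per length of the gene model, the order of the 10 mRNAs was similar in both kinds of cells, and of the 9 genes tested Ccl2 moved most as a ratio. In mock sub-polysomal RNA Cxcl1 led with 1248 ± 44.7 CPM per kb (SD, n = 3), followed by Csf3 with 725 ± 79.0 and Cxcl5 with 564 ± 139, of which the latter pair overlapped. Cxcl16 came next with 141 ± 6.25, then Ccl5 with 63.1 ± 16.2, Csf1 with 33.5 ± 5.35, Csf2 with 18.0 ± 5.94, Ccl20 with 9.27 ± 1.74 and Ccl2 with 1.07 ± 0.435. In METTL7A1 sub-polysomal RNA Csf2 (32.7 ± 5.54), Ccl20 (32.1 ± 2.23), Csf1 (29.2 ± 7.23) and Ccl2 (28.5 ± 5.17) formed a run in which each gene overlapped its neighbour. The deposited length of Ccl20 was 1421 bases, while its coding transcript in GENCODE had 794, so its place in the run depends on the length taken. In mock polysomal RNA Csf3 (533 ± 78.2), Cxcl1 (511 ± 142) and Cxcl5 (430 ± 99.5) overlapped, and in METTL7A1 polysomal RNA Cxcl1 (857 ± 130) and Cxcl5 (707 ± 99.2) overlapped while Csf3 (400.0 ± 14.3) lay below both.

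Which pool held these mRNAs was not used by the rule that chose the genes, although earlier results of these data were known, and was tested with edgeR's quasi-likelihood test, with Benjamini-Hochberg adjustment over the 12224 genes. In mock cells Ccl5, Cxcl1 and Csf2 were 2.54-fold, 2.44-fold and 2.20-fold lower in polysomal than in sub-polysomal RNA, and smaller falls were measured for Ccl20, Cxcl16 and Csf3. Csf1 was 1.34-fold higher in polysomal RNA. In total 7 of the 9 genes passed an adjusted p-value of 0.05, 1 higher and 6 lower, where 47% of all genes passed. By a stricter rule, an adjusted p-value below 0.01 with a log2 change beyond 1.5, 0 of the 9 passed with edgeR, DESeq2 or limma-voom, where 7.55% of all genes passed, and 8 of the 9 had an unadjusted p-value below 0.05. The median log2 change of the 9 genes was -0.53, against 0.054 over all genes. With at least 10 counts in every library, which leaves out Ccl2, the median of 8 genes was -0.52, and 6 were lower and 0 higher at an adjusted p-value of 0.05. At this filter 4707 of all 8855 genes passed 0.05.

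The log2 changes in mock cells were -1.34 for Ccl5 (SE 0.28, adjusted p = 0.000728), -1.29 for Cxcl1 (SE 0.19, adjusted p = 3.58e-05) and -1.14 for Csf2 (SE 0.23, adjusted p = 0.000589). These 3 kept an adjusted p-value below 0.05 under all 14 alternatives run for each. For Ccl20 the change was -0.53 (SE 0.20, adjusted p = 0.0353), for Cxcl16 -0.44 (SE 0.17, adjusted p = 0.0418), for Csf3 -0.44 (SE 0.16, adjusted p = 0.0292) and for Csf1 0.42 (SE 0.17, adjusted p = 0.0477). These 4 were lost in part of the alternatives, since Ccl20 passed in 7, Cxcl16 in 8, Csf3 in 10 and Csf1 in 5 of 14. Without mock replicate C the value of Csf1 was 0.23 (adjusted p = 0.394), and without mock replicate B that of Csf3 was -0.28 (adjusted p = 0.278). Cxcl5 did not pass (log2 -0.39, 95% interval -0.82 to 0.037, adjusted p = 0.123), but without mock replicate B it was at -0.75 (adjusted p = 0.0122). Ccl2 was tested only because of its level in METTL7A1 cells, and at 1 to 4 counts a library nothing is read from its value in mock cells.

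In METTL7A1 cells the same comparison gave 8 of the 9 genes past an adjusted p-value of 0.05, where 59.3% of all genes passed, again with Csf1 alone on the polysomal side. Ccl5 was 3.13-fold lower in polysomal RNA (log2 -1.65, SE 0.26, adjusted p = 2.65e-05) and was the 1 gene of the 9 that passed the stricter rule, where 12.1% of all genes passed. Cxcl1 fell as well (log2 -1.26, SE 0.19, adjusted p = 2.20e-05), as did Csf3, 2.21-fold (log2 -1.14, SE 0.16, adjusted p = 9.45e-06) and Csf2, 2.09-fold (log2 -1.06, SE 0.20, adjusted p = 0.000203). The log2 changes were -0.85 for Cxcl16 (adjusted p = 0.000352), -0.71 for Ccl2 (adjusted p = 0.00210) and -0.58 for Ccl20 (adjusted p = 0.00390). Csf1 was 1.37-fold higher (adjusted p = 0.0268), and Cxcl5 did not pass (log2 -0.28, 95% interval -0.71 to 0.15, adjusted p = 0.243). Csf1 did not pass when libraries were scaled to Actb (log2 0.21, adjusted p = 0.419). Without METTL7A1 replicate E, Ccl2 (adjusted p = 0.0553), Ccl20 (adjusted p = 0.0537) and Csf1 (adjusted p = 0.158) no longer passed, and without replicate F neither did Csf1 (adjusted p = 0.137). The median of the 9 genes was -0.85, against 0.058 over all genes.

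In single libraries, 7 of the 8 genes with a negative change in mock cells had non-overlapping pools, the exception being Cxcl5, and the same held in METTL7A1 cells. In mock cells the 7 include Ccl2, with 1 to 4 counts a library, and nothing is read from its gap there. Csf1 was higher in polysomal RNA without overlap in mock cells and with overlap in METTL7A1 cells. Non-overlapping pools were found in 51.9% of all genes in mock and in 66.8% in METTL7A1 cells. For Ccl2 in METTL7A1 cells the lowest sub-polysomal library (18.4 CPM) stood above the highest polysomal library (14.9 CPM).

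All of these mRNAs but Csf1 have coding sequences shorter than the median of 1374 bases over the genes tested, and the coding length, chosen as a measure after the values had been seen, moved with the pool across all genes. Over 10842 genes with a coding transcript, the Spearman correlation of coding length with the log2 polysomal change was 0.55 in mock and 0.54 in METTL7A1 cells, given as a description over genes that share libraries. Genes with up to 500 coding bases, 964 in all with Ccl2, Ccl5, Ccl20, Cxcl1, Cxcl5 and Csf2 among them, had medians of -1.06 in mock and -1.37 in METTL7A1 cells. Those with 500 to 1000 coding bases, among them Cxcl16 (738) and Csf3 (624), had medians of -0.18 and -0.27, and those with 1000 to 2000, among them Csf1 (1656), had medians of 0.15 and 0.21.

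Beside genes of 0.8 to 1.25 times its own coding length, Ccl5 (273 bases) lay near the middle, above 55.1% of 292 genes in mock and above 56.5% in METTL7A1 cells. Cxcl1 (288 bases) lay above 53.3% and 73.0% of 345 genes. Ccl20 (291 bases) lay high, above 90.8% and 89.9% of 348 genes, and Cxcl5 (396 bases) lay above 76.2% and 85.7% of 677. Csf1 (1656 bases) lay above 66.8% and 60.9% of 2656 genes. Lower were Csf3, above 41.4% of 1409 genes in mock and 20.3% in METTL7A1 cells, Cxcl16, above 33.2% and 24.7% of 1673, and Csf2, above 32.2% and 47.3% of 746. Ccl2 (444 bases) lay above 59.6% of 801 genes in METTL7A1 cells. The part of coding length in the single values was not tested.

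**Figure D3:**
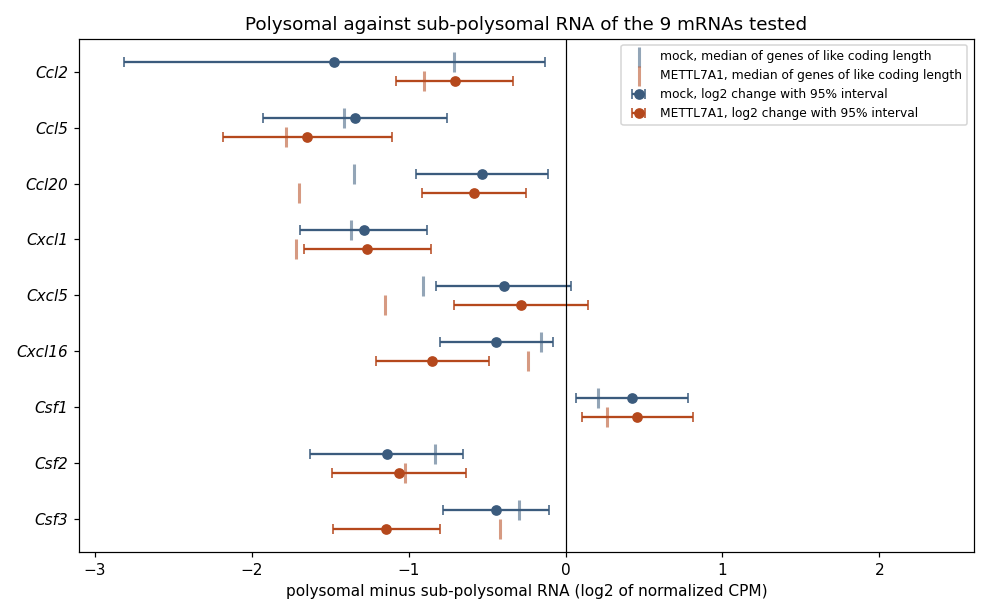
Polysomal minus sub-polysomal log2 change of the 9 genes tested in mock (blue) and METTL7A1 cells (orange), with 95% intervals from the fit, and, as a vertical tick in the same colour, the median of the genes of 0.8 to 1.25 times the same coding length. Csf1 lies to the right of 0 in both kinds of cells, and Ccl20 lies to the right of its ticks of -1.35 and -1.70.

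Whether METTL7A1 shifted these mRNAs between the pools was asked with the difference between genotypes in the polysomal change. Of the 9 genes 0 passed either rule with edgeR, 1 (Csf3) had an unadjusted p-value below 0.05, and 0% of all genes tested passed (smallest adjusted p = 0.0942), while 1912 of 12224 genes had an unadjusted p-value below 0.05. With DESeq2, 329 genes passed an adjusted p-value of 0.05, and with limma-voom 0. The edgeR count was 111 without mock replicate A and 159 with no filter beyond 1 count in total, with 0 of the chemokine and colony stimulating factor genes among them in either. The median of the 9 genes was 0.024, with 5 above and 4 below 0. With at least 10 counts in every library, which leaves out Ccl2, the median of 8 genes was -0.027, with 4 above and 4 below 0.

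Csf3 had the most negative shift of the 9, at -0.70 (SE 0.23, 95% interval -1.17 to -0.22, unadjusted p = 0.00627, adjusted p = 0.150 in edgeR's quasi-likelihood test). It was negative under each of the 13 alternatives, between -0.87 and -0.56, and passed an adjusted p-value of 0.05 in 1 of them, DESeq2 (adjusted p = 0.0197). Cxcl16 was at -0.41 (95% interval -0.91 to 0.10) and Ccl5 at -0.30 (-1.09 to 0.49). Ccl20 (-0.58 to 0.48), Cxcl1 (-0.54 to 0.59), Cxcl5 (-0.50 to 0.72), Csf1 (-0.47 to 0.54) and Csf2 (-0.57 to 0.72) had intervals on both sides of 0, with estimates between -0.050 and 0.11. For Ccl2 the shift of 0.77 had an interval from -0.62 to 2.15, which its few mock counts leave wide.

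Neighbouring chemokine genes differed from one another. On chromosome 11 Ccl2 was followed by Ccl7 with 8 counts over the 12 libraries, Ccl11 with 1, and Ccl12, Ccl8 and Ccl1 with 0 each. On chromosome 5, between Cxcl5 and Cxcl1, Ppbp, a platelet and neutrophil chemokine, rose from 7.86 to 19.3 CPM in mock to 41.1 to 49.1 CPM in METTL7A1 sub-polysomal RNA. Its log2 change was 1.62 there (SE 0.27, adjusted p = 0.000218) and 1.76 in polysomal RNA (SE 0.25, adjusted p = 6.47e-05, edgeR). Cxcl3, another CXCR2 ligand of this cluster, named here after its values were seen, fell by 1.04 (adjusted p = 0.00152) in sub-polysomal and by 1.39 (adjusted p = 0.000388) in polysomal RNA on the log2 scale. Cxcl2 had 72 counts over the 12 libraries and did not pass (adjusted p = 0.507 in polysomal RNA), and Pf4 and Cxcl15 had 0 counts.

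**Figure D4:**
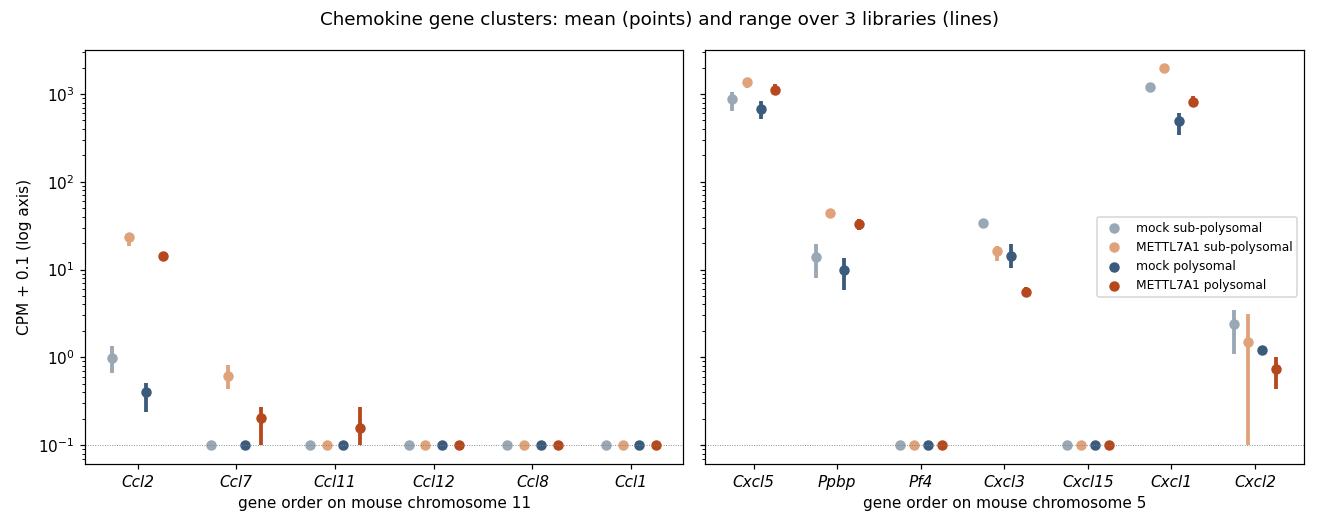
Level in CPM plus 0.1 (log axis) of the chemokine genes in their order on chromosomes 11 and 5, with the mean (points) and range (lines) of 3 libraries per group; the dotted line marks 0 counts. On chromosome 5 the METTL7A1 levels of Cxcl5, Ppbp and Cxcl1 lie above mock in both pools and those of Cxcl3 below.

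The other genes of the pathway were taken from fixed lists and compared between METTL7A1 and mock cells. Of all genes tested, 2.13% in polysomal and 2.76% in sub-polysomal RNA passed the stricter rule, and 18% and 31.4% passed an adjusted p-value of 0.05 without a limit on the change. An unadjusted p-value below 0.05 was found in 3819 and 5164 of the 12224 genes. Of 27 other chemokines 11 had 0 counts in all libraries and 7 were tested. By the stricter rule Ppbp rose in both pools and 0 fell, although without mock replicate B its sub-polysomal log2 change was 1.33, short of that rule. At an adjusted p-value of 0.05 the polysomal pool had 1 riser (Ppbp) and 2 fallers (Cxcl3 and Cx3cl1) among the 7, where 18% of all genes passed, and the sub-polysomal pool had 1 and 3, where 31.4% passed. Of 17 receptors of the 10 factors 9 had 0 counts in all libraries and 0 were tested, the highest being Csf1r with 39 counts over the 12 libraries.

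Of 22 other secreted cytokines 19 were tested, and Tslp and Saa3 passed the stricter rule in both pools. Tslp, an epithelial cytokine that activates dendritic cells, rose from 31.9 to 42.1 CPM in mock to 282 to 337 CPM in METTL7A1 polysomal RNA (log2 3.09, SE 0.16, adjusted p = 2.32e-10). In sub-polysomal RNA it rose from 58.5 to 75.9 CPM to 388 to 447 CPM (log2 2.67, SE 0.16, adjusted p = 3.03e-09). Saa3, an acute phase protein, had 0 to 2 counts in a mock library (at most 0.629 CPM) and 6 to 16 in a METTL7A1 library. It reached the limit of 1 CPM in METTL7A1 libraries only, so it entered the test through the group where it was high and nothing is read from its call, which in polysomal RNA was also lost with DESeq2, with only the compared groups in the fit, and without any single one of the replicates A to F. At an adjusted p-value of 0.05 the list had 8 risers and 2 fallers of 19 in the polysomal pool, where 18% of all genes passed, and 9 and 2 in the other, where 31.4% passed, with Saa3 counted in both. The polysomal risers also include Tnf and Il18, with at most 4 and 9 counts in a mock library. Both passed the filter only with METTL7A1 libraries, where they were high, so nothing is read from their calls.

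All 20 genes of the NF-kB pathway were tested. By the stricter rule 0 passed in polysomal RNA with edgeR, DESeq2 or limma-voom (7 at an unadjusted p-value below 0.05) and 1, Bcl3, rose in sub-polysomal RNA. The call of Bcl3 was lost with only the compared groups in the fit, and without mock replicates A or C or METTL7A1 replicates D or E. The list had a median of -0.069 in the polysomal and of 0.11 in the sub-polysomal pool. At an adjusted p-value of 0.05, 3 of the 20 were lower and 0 higher in polysomal RNA (Traf1, Birc3 and Tnfaip3), where 18% of all genes passed. In sub-polysomal RNA 5 were higher (Traf2, Bcl3, Tnip1, Map3k14 and Rela) and 2 lower (Icam1 and Tnfaip3), where 31.4% passed. Icam1 had 49 counts over the 12 libraries (mean 0.938 CPM). It entered the test through the mock libraries, where it was high, so nothing is read from its call. Tnfaip3, which encodes the feedback inhibitor A20, had log2 changes of -0.45 and -0.49.

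All 11 decay factors for AU-rich elements were tested, and 0 passed the stricter rule in either pool with edgeR, DESeq2 or limma-voom. In polysomal RNA 0 passed an adjusted p-value of 0.05 (3 were below 0.05 unadjusted), and in sub-polysomal RNA Zc3h12a and Zfp36 (tristetraprolin) were higher and Rc3h2, Hnrnpd and Zfp36l2 lower. Of 11 proteases, their regulators and inhibitors linked to chemokine shedding and cleavage, 9 were tested and Adam8 rose in both pools (log2 1.95, SE 0.17, adjusted p = 2.15e-07 in polysomal, and 1.78, SE 0.19, adjusted p = 3.35e-06 in sub-polysomal RNA). At an adjusted p-value of 0.05, 4 of the 9 passed in polysomal RNA, where 18% of all genes passed. Adam8, Adam9 and Rhbdf2 were higher there and Timp2 lower. In sub-polysomal RNA 5 passed, where 31.4% of all genes passed, with Adam8, Rhbdf1, Rhbdf2 and Timp1 higher and Adam17 lower. Adam10, a main sheddase of Cxcl16, did not pass in either pool (log2 0.30 and -0.27).

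**Figure D5:**
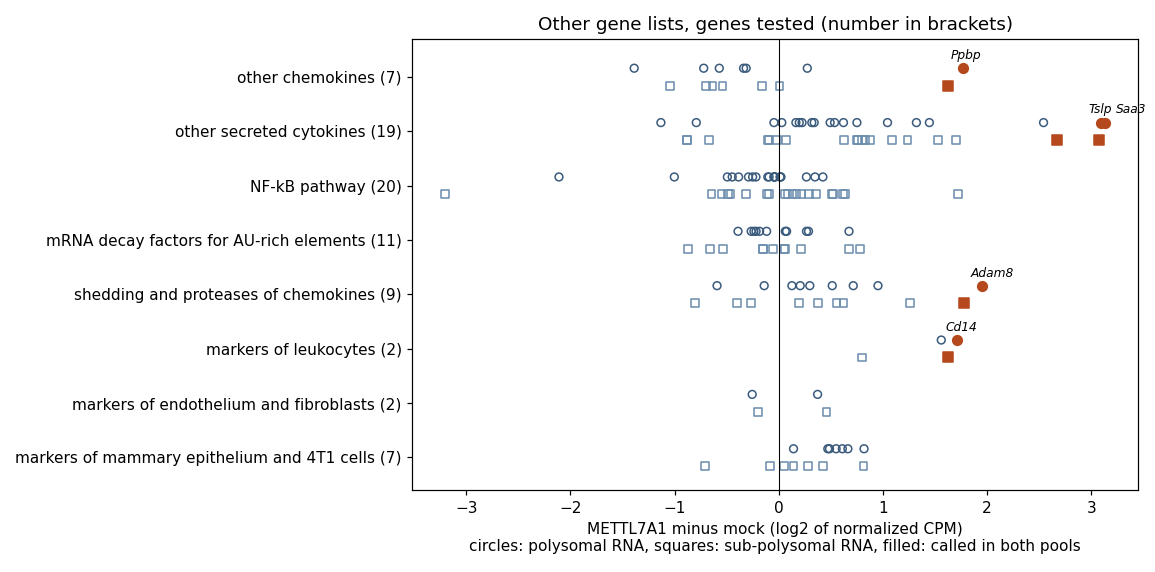
METTL7A1 minus mock log2 difference of every tested gene of the other lists (number tested in brackets), in polysomal RNA (circles) and sub-polysomal RNA (squares); filled symbols are genes past the stricter rule in both pools. Ppbp, Tslp, Saa3, Adam8 and Cd14 are filled, and the NF-kB and decay factor lists spread on both sides of 0.

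Tslp was also the gene most like Ccl2 across the 12 libraries, with a Pearson r of 0.988 in log2 CPM. Atf3 (0.988), Atg9b (0.987), Slc39a4 (0.981) and Sbsn (0.977) followed among 9446 genes with a mean of at least 5 CPM, of which 56 exceeded 0.95. Among the other chemokine and colony stimulating factor genes Ccl20 came closest (0.977), then Cxcl16 (0.780), Cxcl5 (0.776), Csf2 (0.740), Ccl5 (0.686) and Cxcl1 (0.631), while Csf3 (0.098) and Csf1 (-0.42) did not follow. The libraries fall into 2 genotypes, and a difference between the genotypes enters r, so these values are a description.

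Markers of leukocytes, which also express Ccl2, were examined for cells other than 4T1. Of 14 markers 6 were at 0 in all 12 libraries and 12 had under 10 counts over all of them. Their summed level was 14.7 to 24.8 CPM in mock and 43.2 to 64.3 CPM in METTL7A1 libraries and came almost wholly from Cd14 and Cd68. Cd14, a co-receptor for lipopolysaccharide that cells other than leukocytes can express, rose by the stricter rule in both pools (log2 1.72 in polysomal, adjusted p = 2.69e-07, and 1.63 in sub-polysomal RNA, adjusted p = 4.92e-06). Cd68, a marker of macrophages, was higher by 1.56 in polysomal RNA (SE 0.23, adjusted p = 0.00011) and by 0.80 in sub-polysomal RNA (SE 0.27, adjusted p = 0.0329). It passed the stricter rule in polysomal RNA, short of it without mock replicate A (log2 1.39) or METTL7A1 replicates D (1.44) or E (1.48), and its sub-polysomal call at 0.05 was lost with limma-voom and without mock replicates B or C or METTL7A1 replicates D or E. Ptprc, the common leukocyte antigen CD45, had 1 count over the 12 libraries. Of 9 markers of endothelium and fibroblasts 2 were tested and 0 passed either rule between the genotypes, also at an unadjusted p-value of 0.05. The 7 markers of mammary epithelium were present in every library. Their sum was 3816 to 4510 CPM in mock and 5800 to 6708 CPM in METTL7A1 polysomal RNA, without overlap, and 3079 to 3184 CPM and 3170 to 3826 CPM in sub-polysomal RNA, where the ranges met. At an adjusted p-value of 0.05, 5 of the 7 were higher in METTL7A1 polysomal RNA and 0 lower, and in sub-polysomal RNA Krt8 was higher and Epcam lower. The part of these markers in the differences of the chemokine and colony stimulating factor genes was not tested.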

How the data were processed

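RNA-Seq of polysomal and sub-polysomal RNA of 4T1 cells, 12 libraries in 4 groups of 3, was analysed. Per the labels, libraries were made with a stranded total RNA kit with rRNA removal. The authors deposited raw counts per gene, without normalization. Per the labels and the study's methods for its RNA-Seq, reads were aligned to mm10 with STAR 2.5.3a and assigned to Ensembl genes of GRCm38 with featureCounts. The deposited gene length gave CPM per kb, and counts are without molecular identifiers. The study's methods describe paired-end reads and do not say whether a count is 1 read or 1 read pair.

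Genes that reached 1 CPM in 3 or more libraries were fitted with edgeR 4.0.16 in R 4.3.3 (TMM factors, 1 mean per group, quasi-likelihood test, Benjamini-Hochberg adjustment). The stricter rule was 0.01 for the adjusted p-value together with 1.5 for the log2 change, and 0.05 without a limit was also used. SEs are the log2 change divided by the root of F. log2 CPM used a prior count of 2. The fit was tested on simulated counts. Alternatives were RLE factors, Actb scaling, DESeq2 1.42.0, limma-voom (limma 3.58.1), 2 other filters, a block for the letter, fits of the compared groups alone, and leaving out each letter.

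Named were the 10 genes, Mettl7a1, Actb, list genes past the stricter rule the same way in both pools (up to 5 a list, mean of at least 1 CPM), the 5 genes most like Ccl2 (mean of at least 5 CPM), and markers. Other names were added after the values were seen: the genes beside Ccl2 and Cxcl5, members of lists past 0.05 and Adam10. The 10 genes, lists and tests were chosen with earlier results of these data known. Figures used matplotlib 3.10.9.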

Additional observations from a re-analysis of the deposited data

How the results depend on the processing

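Without a limit on the log2 change, an adjusted p-value of 0.05 gave 7 instead of 0 of the 9 genes for the pools of mock cells, 8 instead of 1 in METTL7A1 cells, 2197 instead of 260 genes for METTL7A1 against mock in polysomal RNA and 3836 instead of 337 in sub-polysomal RNA. With at least 10 counts in every library, 55 and 92 genes were called, of 8855 tested. Leaving out 1 letter gave 0 to 1 of the 9 genes for the pools of mock cells (Cxcl1 without mock replicate B, log2 -1.501), 1 throughout in METTL7A1 cells and 0 throughout for the shift. For METTL7A1 against mock it gave 189 to 257 genes in polysomal and 235 to 364 in sub-polysomal RNA. Actb scaling moved the median of all genes by 0.26 in sub-polysomal RNA and turned the split of its calls from 183 higher and 154 lower to 359 and 88. It also turned the shifts of Cxcl1 (-0.14), Cxcl5 (-0.00588), Csf1 (-0.12) and Csf2 (-0.11). Shifts near 0 also turned when 1 letter was left out: Ccl20 ranged from -0.12 to 0.090, Cxcl1 from -0.16 to 0.24, Cxcl5 from -0.13 to 0.47, Csf1 from -0.079 to 0.23 and Csf2 from -0.19 to 0.25. The cause was not tested. Between the pools of the same letter, deviations from the group means correlated with r between -0.29 and 0.11. Of 6 letters 2 correlated best with their own. The highest values were for crossed mock letters, 0.33 for sub-polysomal B with polysomal C and 0.23 for sub-polysomal C with polysomal B. These values cannot tell whether pools of the same letter came from the same lysate. With the replicate letter as a block, 0, 1 and 0 of the 9 genes were called for the mock pools, the METTL7A1 pools and the shift, as without it. Depth limited Ccl2 in mock cells and Ccl7 in all.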
